A study of Mus musculus with 4 samples.

Results

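The DNA replication and S-phase genes are a list of 45 genes that license replication origins, build and drive the replication fork, supply nucleotides and carry the cell from G1 into S phase. The rule that picks them goes by gene symbol and uses no measured value, and 42 of the 45 have a row among the 24768 genes of the deposited table. Mcm3, Gins3 and Rrm2 are not analysed here. The samples were 4 mouse T cell libraries, 2 labelled WT cDNT and 2 labelled Tbx21-KO cDNT, and the labels give both groups the cell type T cells. Tbx21 encodes the transcription factor T-bet, and DNT stands for double-negative T cells, which carry neither CD4 nor CD8. The sample labels call the second group a knockout and the design text a knockdown, and neither spells out the c of cDNT. Strain, age, culture, sorting and how Tbx21 was removed are not stated, and no label says that the libraries of a group came from separate animals or cultures. The p-values below therefore reflect library-to-library spread only, and that spread may be technical.

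A cell duplicates its genome once per division. In G1 the origin recognition complex (ORC), with Cdc6 and Cdt1, loads the ring-shaped MCM helicase onto origins. In S phase Cdc45 and the GINS complex join the ring and start it, DNA polymerases alpha, delta and epsilon copy the strands, and the sliding clamp PCNA, placed by the RFC clamp loader, holds the polymerases on the template. Cyclin E with its kinase and the E2F transcription factors govern entry into S phase, and E2F factors drive the transcription of many of the genes named here. T cells that have been activated divide fast and express this machinery strongly.

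Most of these genes were slightly lower in the Tbx21-KO libraries on the deposited scale, with Pcna, Pola1, Ccne1, Mcm5 and Cdc6 falling furthest and E2f2 rising, while none was called lower with the libraries rescaled to T cell receptor genes. Of the 41 members tested, 26 fell, 2 rose and 13 were not called, with a median log2 fold change of -0.20. The test was limma on log2(FPKM + 1) over the 11013 genes whose mean FPKM was 1 or more, and a gene is called at a Benjamini-Hochberg adjusted p under 0.05. FPKM counts sequenced fragments relative to gene length and library depth. Among all 11013 genes 23.0% were called lower and 30.1% higher, 53.1% in all, with a median of 0.04. The members that fell reached 64.3% to 91.7% of their WT mean, with adjusted p from 0.000368 to 0.0489. For 31 members both Tbx21-KO values lay below both WT values and for 3 above, against 35.3% and 43.7% of all genes tested. Without Tbx21-KO library 1 the number that fell was 15, and without Tbx21-KO library 2 it was 16. A negative log2 fold change means a lower level in Tbx21-KO.

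The sign of most of these small changes depended on what the libraries were scaled to. On the T cell scale defined next, the 5 members that fell furthest stayed negative without a call, Ccne1 and Pola1 at -0.16, Pcna and Cdc6 at -0.09 and Mcm5 at -0.05, and E2f2 stayed positive on every scale. The median of all genes moved by 0.39 on the log2 scale when the libraries were rescaled to 18 T cell receptor genes, by -0.14 after quantile normalization and by -0.10 with median-of-ratios scaling. On the T cell scale no member was called lower and 28 were called higher, against 4.87% and 71.8% of all genes (76.7% in either direction). After quantile normalization 28 fell and 1 rose, against 34.5% and 22.1% of all genes (56.7%), and with median-of-ratios scaling 32 fell and 1 rose, against 32.0% and 24.1% (56.1%). Relative to all genes the members lay low on each scale, and their median lay below the median of all genes by 0.24 on the deposited scale, 0.20 on the T cell scale, 0.17 after quantile normalization and 0.26 with median-of-ratios scaling. The log2 fold change of 36 of the 41 members was below that of the median gene on the deposited scale, and that of 34, 30 and 37 on the other 3 scales in the same order. A fall below therefore means a fall on the deposited scale, relative to a median gene that hardly moved.

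The targeted gene and the markers of other cells give the setting. Tbx21 was at 13.2 and 11.7 FPKM in the WT libraries and had dropped to 2.29 and 2.41 FPKM in the Tbx21-KO libraries (log2 fold change -2.01, SE 0.08, adjusted p = 8.21e-05). Each library's FPKM values imply 23342603 to 24967028 counted reads. The 18 T cell receptor genes with a row summed to 2145 and 2251 FPKM in WT and 1533 and 1565 in Tbx21-KO, 70.5% of WT, and 13 of them fell and 1 rose. All 18 had a WT mean of 1 FPKM or more. They did not move together, with log2 fold changes from -1.41 to 0.53 on the deposited scale. On the T cell scale 7 of the 18 were called higher, 7 lower and 4 were not called. Markers of granulocytes and their precursors summed to 10.6 and 13.7 FPKM in WT and to 10674 and 10986 FPKM in Tbx21-KO. All 15 rose, with Csf3r and Cebpe listed at 0 in WT library 1. Of these 15 genes 5 had a WT mean of 1 FPKM or more. The others passed the filter only through the Tbx21-KO libraries, so their direction was set by the filter. Markers of mast cells, basophils and eosinophils (10 genes) summed to 24.3 and 25.0 against 469.4 and 462.5 FPKM. Of the 9 tested 8 rose and Kit fell, and 3 of the 10 genes had a WT mean of 1 FPKM or more. The tested genes under that WT level passed the filter only through the Tbx21-KO libraries, which set their direction. Markers of monocytes and macrophages (8 genes) summed to 180.2 and 181.3 against 445.4 and 475.8 FPKM. Of these 8 genes 4 had a WT mean of 1 FPKM or more. Here too the tested genes under that level passed only through the Tbx21-KO libraries. B cell markers (7 genes) summed to 40.7 and 42.3 against 92.4 and 89.3 FPKM, with Ms4a1 and Pax5 under 0.1 FPKM in every library. Dendritic cell markers (10 genes) summed to 57.7 and 64.7 against 161.0 and 167.6 FPKM, and of the 8 tested 5 rose and 3 were not called. Erythroid and stem cell markers (8 genes) summed to at most 2.45 FPKM in a library. Dividing myeloid precursors use the same replication genes, and the part of these cells in the members' values was not tested. In bulk RNA fewer cells of a type and less RNA per cell cannot be told apart.

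The members summed to 1382 and 1367 FPKM in WT libraries 1 and 2 and to 1140 and 1135 FPKM in Tbx21-KO libraries 1 and 2, 82.8% of WT. Both Tbx21-KO sums lay below both WT sums. Divided by the sum of the T cell receptor genes in the same library, the order turned around, with 0.64 and 0.61 in WT and 0.74 and 0.72 in Tbx21-KO. The tested members were well measured, with 406 to 12621 reads per gene and library (median 2020), and each had a WT mean of at least 5.94 FPKM, so every one would have passed on the WT libraries alone. The plot of levels by library shows how closely the libraries of a group lie.

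**Figure D1:**
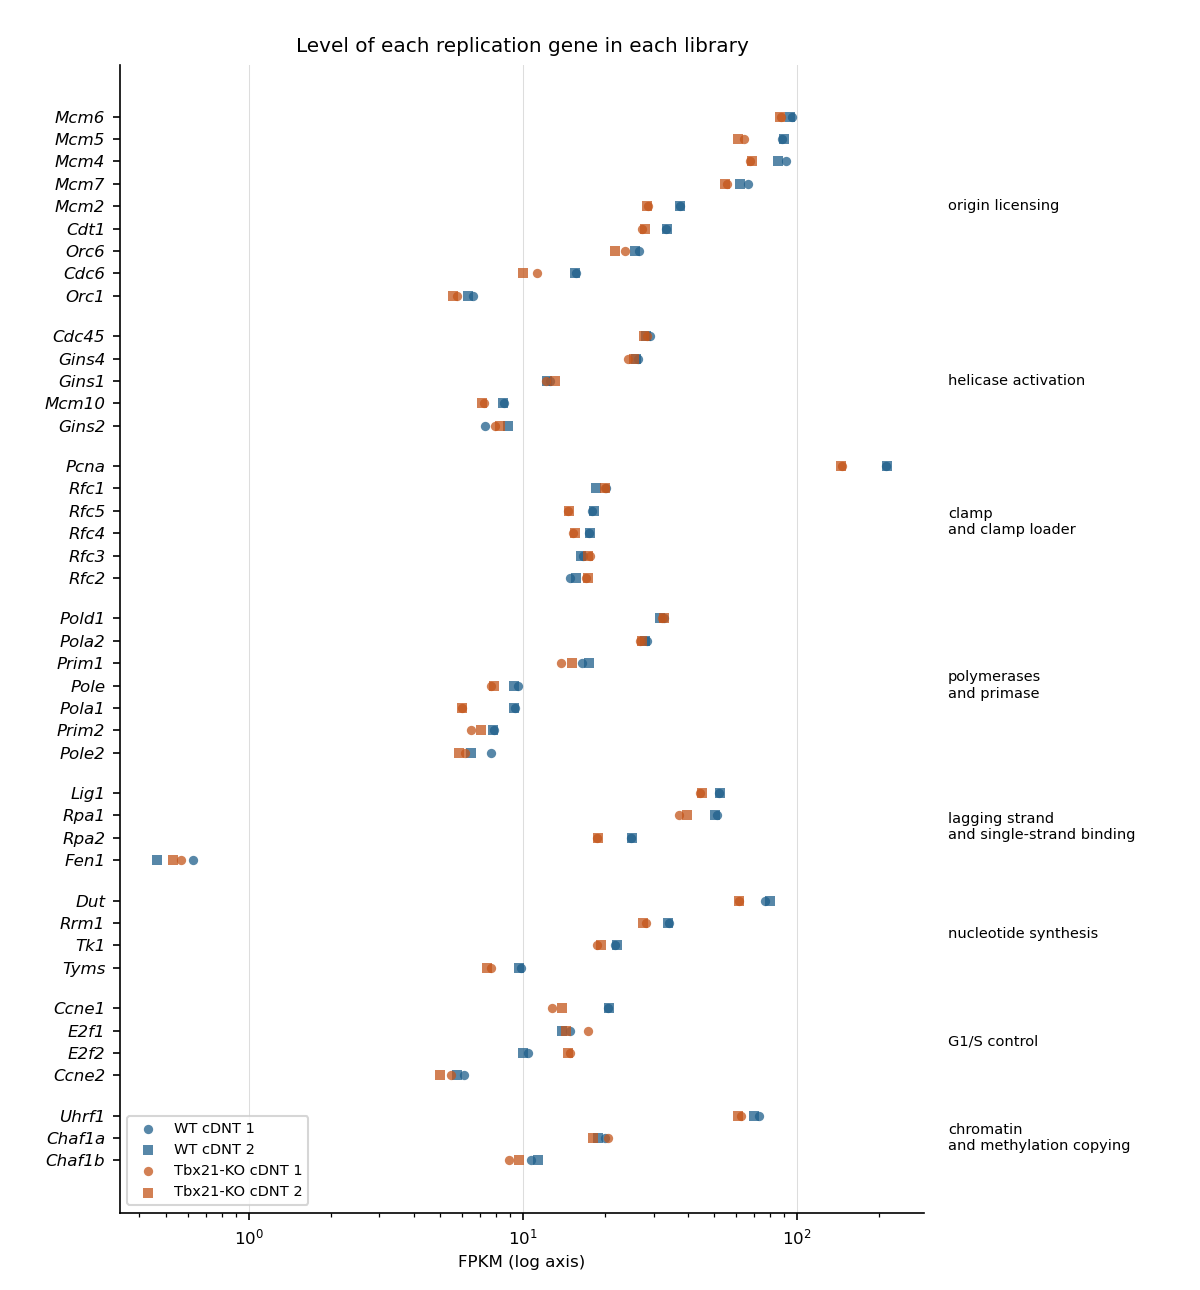
FPKM of the 42 members with a row (log axis) in each library, grouped by role. WT libraries are blue and Tbx21-KO libraries orange, with circles for library 1 and squares for library 2. Pcna is highest and Fen1, whose exons mostly overlap other genes, is lowest, and in 31 tested members both orange points lie left of both blue points on this deposited scale, whereas none was called lower after rescaling to the T cell receptor genes.

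E2F factors bind promoters of S-phase genes at short GC-rich strings, so the 250 bases before each RefSeq start site (GRCm38.p6) were searched on both strands for the E2F strings TTTCCCGC and TTTGGCGC. Of the 42 members, 34 matched the promoter table, with 40 start sites. Either E2F string was found at 5 of the 34 genes, 14.7%, against 1.51% of the 27025 genes in that table. The members' promoters were also richer in GC, at a median of 60.4% against 52.4% for all. The CCAAT box (CCAAT) stood at 55.9% of the members and 37.5% of all genes, and the GC box (GGGCGG) at 70.6% and 35.4%. An E2F string can share bases with a GC box next to it. A match is a description of the letters, not a measured binding site. The 5 genes were Cdc6, Mcm5, Mcm6, Mcm7 and Pola1. All 5 fell on the deposited scale, with a median log2 fold change of -0.50. Of the 28 tested members without a match 18 fell, with a median of -0.21. Among all genes 23.0% were called lower on that scale. On the T cell scale Mcm6 and Mcm7 were called higher, at 0.32 and 0.23, as were 71.8% of all genes. Cdc6, Mcm5 and Pola1 were not called there. Only 2 exact E2F strings were searched, so members without a match may hold close variants. A link between the strings and the changes was not tested. The stretches from base -160 to base -31 of the start are shown for the 4 genes where no annotated exon covers them, because they include 3 of the 5 largest falls, with the E2F strings in capitals. Those of Cdc6 and Mcm5 lie at chr11:98907991-98908120 and chr8:75109349-75109478 on the plus strand. Those of Mcm6 and Pola1 lie at chr1:128359736-128359865 and chrX:93632186-93632315 on the minus strand. All are written 5′ to 3′ on the strand of the gene. The start is that of RefSeq. The GENCODE annotation starts Cdc6 earlier, at base 98907801, so the Cdc6 stretch lies inside the annotated gene, between exons. The searched windows of E2f1 and Dut also lie within their annotated genes.
Cdc6: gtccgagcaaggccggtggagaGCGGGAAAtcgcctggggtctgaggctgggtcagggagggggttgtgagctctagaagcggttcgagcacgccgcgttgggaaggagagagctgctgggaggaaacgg
Mcm5: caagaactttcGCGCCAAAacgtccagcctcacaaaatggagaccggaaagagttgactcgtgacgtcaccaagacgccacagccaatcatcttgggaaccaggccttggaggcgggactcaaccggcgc
Mcm6: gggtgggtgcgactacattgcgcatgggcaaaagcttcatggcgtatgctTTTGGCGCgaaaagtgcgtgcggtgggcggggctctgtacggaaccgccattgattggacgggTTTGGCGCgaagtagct
Pola1: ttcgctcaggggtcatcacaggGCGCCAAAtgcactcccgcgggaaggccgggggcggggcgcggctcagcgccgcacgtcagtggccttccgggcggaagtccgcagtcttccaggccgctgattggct

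In Mcm6 the string was read at 2 places on the gene's strand, from -110 to -103 and from -47 to -40. In Cdc6 and Pola1 it stood on the opposite strand from -138 to -131, and in Mcm5 on the opposite strand from -149 to -142. The gene with a pair of strings, Mcm6, had the smallest of these 5 falls.

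Of 9 measured origin licensing genes 8 fell on the deposited scale, and the other, Orc1, the ATPase subunit of ORC that is made anew in each cycle, was not called at -0.16 (adjusted p = 0.0697). On the T cell scale 5 of the 9 licensing genes were called higher and none lower, beside 71.8% and 4.87% of all genes. On the deposited scale 23.0% of all genes were called lower. Cdc6, the loader that recruits the helicase to ORC, was at 15.6 and 15.5 FPKM in WT and at 11.3 and 10.0 FPKM in Tbx21-KO. Both Tbx21-KO values lay below both WT values, and it fell to 68.5% of WT (log2 fold change -0.51, SE 0.07, adjusted p = 0.00312). Cdt1, the partner of Cdc6 in loading, fell to 82.1%, and Orc6, another ORC subunit, to 86.7%. Orc6 was not called in 4 of the 15 alternative fits.

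The MCM subunits form one ring with 1 copy of each, yet their transcripts fell to different degrees. Mcm5 was at 88.1 and 89.9 FPKM in WT and at 64.1 and 61.1 FPKM in Tbx21-KO (log2 fold change -0.50, SE 0.04, adjusted p = 0.000781). Mcm6 was at 96.2 and 94.2 FPKM in WT and at 87.8 and 86.8 FPKM in Tbx21-KO (log2 fold change -0.12, SE 0.04, adjusted p = 0.0388). The fall of Mcm5 left the groups far apart, whereas that of Mcm6 was the smallest called in the module. It was not called in 8 of 15 alternative fits and called higher in 1, on the T cell scale. Mcm2, Mcm4 and Mcm7 fell to 76.1%, 76.9% and 85.9% of WT. The ratio of Mcm5 to Mcm6 within a library is free of any scaling by 1 factor per library. On the deposited values it was 0.92 and 0.95 in WT and 0.73 and 0.70 in Tbx21-KO. The ratios of Mcm2, Mcm4 and Mcm7 to Mcm6 were lower in both Tbx21-KO libraries as well, at 83.0%, 83.9% and 93.7% of the WT ratio. Mcm6 fell least of these subunits, so lower ratios to it follow from its choice as the divisor. Over all 820 pairs of tested members the ratios of the groups did not overlap in 79.9%.

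Most genes that switch the loaded helicase on were not called. Of 5 measured genes, Mcm10 alone fell and 4 were not called on the deposited scale, with a median of -0.03. On the T cell scale all 5 were called higher. Among all genes 23.0% were called lower on the deposited scale and 71.8% higher on the T cell scale. Mcm10, which helps the helicase to start, was at 8.57 and 8.50 FPKM in WT and at 7.23 and 7.11 FPKM in Tbx21-KO (log2 fold change -0.22, SE 0.05, adjusted p = 0.0164). Its groups do not overlap, but the call was lost when any 1 of the 4 libraries was left out. Cdc45 was at 29.2 and 28.1 FPKM in WT and at 28.5 and 27.6 FPKM in Tbx21-KO. Gins1 was at 12.5 and 12.2 FPKM in WT and at 12.2 and 13.1 FPKM in Tbx21-KO. The values of both genes overlapped between the groups, with adjusted p of 0.589 and 0.73. Gins2 and Gins4, further GINS subunits, were at 100.4% and 94.6% of WT and were not called. Gins2 shares 67.3% of its exon bases with a gene on the opposite strand, Gse1. No source used here gives the strand setting of the counting, and without strand the reads of both genes cannot be told apart.

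On the deposited scale the clamp gene fell and its loader subunits were called in both directions. On the T cell scale Pcna was not called and every loader gene was called higher, as were 71.8% of all genes. Pcna, the sliding clamp and the most abundant member, was at 210.6 and 213.9 FPKM in WT and at 145.8 and 145.4 FPKM in Tbx21-KO. It fell to 68.6% of WT, a difference many times the spread within either group (log2 fold change -0.54, SE 0.04, adjusted p = 0.000368). The gene lies on GRCm38 chromosome 2, 132249162 to 132253314. Near-identical Pcna pseudogenes exist, and the one with a row, Pcna-ps2, had 1.98 and 2.14 FPKM in the WT libraries against 0.78 and 0.53. How reads were split between the copies is uncertain. Of the 5 loader subunits, Rfc4 and Rfc5 fell to 87.7% and 81.2% of WT. Rfc4 was not called in 5 of the 15 alternative fits. Rfc1 and Rfc3 were not called on the deposited scale, at log2 fold changes of 0.05 and 0.08, and Rfc2 rose. Rfc2 was at 14.9 and 15.7 FPKM in WT and at 17.0 and 17.3 FPKM in Tbx21-KO (log2 fold change 0.16, SE 0.05, adjusted p = 0.0401). That rise was close to the threshold and lost its call in 8 alternative fits. Rfc2 shares 15.1% of its exon bases with Lat2, and Rfc4 12.7% with Eif4a2, each on the opposite strand.

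Among polymerases and primase, 4 of 7 genes fell on the deposited scale and 3 were not called, beside 23.0% lower among all genes. On the T cell scale 4 were called higher and none lower, beside 71.8% and 4.87% of all genes. Pola1, the catalytic subunit of polymerase alpha, which with primase starts each new strand, was at 9.38 and 9.28 FPKM in WT and at 5.99 and 6.01 FPKM in Tbx21-KO. It fell to 64.3% of WT, the lowest share of any member (log2 fold change -0.56, SE 0.05, adjusted p = 0.000877). Its accessory subunit Pola2 was at 28.5 and 27.9 FPKM in WT against 26.9 and 27.3 FPKM in Tbx21-KO, and was not called (log2 fold change -0.05, adjusted p = 0.292). The ratio of Pola1 to Pola2 was 0.33 in both WT libraries and 0.22 in both Tbx21-KO libraries. Prim1 and Prim2, the primase subunits of the same complex, fell to 85.6% and 86.3% of WT. Prim1 was not called in 4 of the 15 alternative fits and Prim2 in 8, among them each fit that left out 1 library, and both were higher on the T cell scale. Their ratio overlapped between the groups. Pold1, the catalytic subunit of polymerase delta, was at 32.7 and 31.7 FPKM in WT against 32.1 and 32.7 FPKM in Tbx21-KO, and the groups overlap (log2 fold change 0.01, adjusted p = 0.867). Pole, the catalytic subunit of polymerase epsilon, fell to 82.3%, and its accessory subunit Pole2, at 84.7% with a larger spread, was not called (adjusted p = 0.107).

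The 3 tested genes for single-strand binding and joining of fragments fell on the deposited scale, beside 23.0% of all genes. On the T cell scale Lig1 was called higher, as were 71.8% of all genes, and Rpa1 and Rpa2 were not called. Rpa1 and Rpa2 encode subunits of RPA, which coats single-stranded DNA. Rpa1 was at 51.3 and 50.1 FPKM in WT and at 37.3 and 39.8 FPKM in Tbx21-KO (log2 fold change -0.39, SE 0.05, adjusted p = 0.00259). Rpa2 fell by nearly the same amount, to 75.6% of WT against 76.0% for Rpa1, and the ratio of both genes overlapped between the groups. Lig1, the ligase that seals Okazaki fragments, was at 51.8 and 52.4 FPKM in WT and at 44.3 and 45.0 FPKM in Tbx21-KO (log2 fold change -0.22, SE 0.04, adjusted p = 0.00682). Both of its Tbx21-KO values lay below both WT values. Fen1, the nuclease that trims Okazaki fragments, was the one member under the filter, at 0.63 and 0.46 FPKM in WT and 0.57 and 0.53 in Tbx21-KO, which correspond to 38 and 27 and to 32 and 31 reads. Exons of Tmem258 and Gm10143 on the opposite strand cover 84.2% of its exon bases, and reads of these genes cannot be told apart without strand. The printed values may therefore not be the level of the Fen1 transcript, and whether counting lost reads to this overlap was not tested.

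Every measured gene of nucleotide synthesis fell on the deposited scale, 4 of 4, beside 23.0% of all genes. On the T cell scale 2 of them, Rrm1 and Tk1, were called higher, beside 71.8% of all genes. Dut, which hydrolyses dUTP so that uracil stays out of DNA, was at 76.5 and 79.9 FPKM in WT and at 61.7 and 61.3 FPKM in Tbx21-KO (log2 fold change -0.34, SE 0.04, adjusted p = 0.00228). Tk1, the thymidine kinase of the salvage route, was at 21.7 and 22.1 FPKM in WT and at 18.6 and 19.4 FPKM in Tbx21-KO (log2 fold change -0.19, SE 0.04, adjusted p = 0.0176). Both genes were lower in each Tbx21-KO library than in each WT library, and Dut by more. Tyms, the thymidylate synthase of the de novo route, fell to 77.1% of WT, and Rrm1, the large subunit of ribonucleotide reductase, to 81.9%. A pseudogene of Tyms exists and is not analysed here.

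G1/S regulators held both the largest log2 fall and the largest rise among the members. Ccne1, which encodes cyclin E1, the partner of Cdk2 at the start of S phase, was at 20.4 and 20.6 FPKM in WT and at 12.8 and 13.9 FPKM in Tbx21-KO. It fell to 65.1% of WT (log2 fold change -0.58, SE 0.05, adjusted p = 0.00101). Ccne2, which encodes cyclin E2, was at 88.3% of WT and was not called (adjusted p = 0.114), and the ratio of Ccne1 to Ccne2 was 3.34 and 3.57 in WT against 2.35 and 2.77 in Tbx21-KO. E2f2, an activating E2F factor, rose instead. It was at 10.5 and 10.0 FPKM in WT and at 14.9 and 14.6 FPKM in Tbx21-KO, 144.1% of WT (log2 fold change 0.49, SE 0.05, adjusted p = 0.00125). E2f2 was called higher in all 15 alternative fits, on the T cell scale at 0.90, the one member with a called rise in each of them. E2f1, its close relative, was at 14.9 and 13.9 FPKM in WT against 17.4 and 14.4 FPKM in Tbx21-KO, and overlapped (adjusted p = 0.321).

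Of the genes that copy chromatin and DNA methylation behind the fork, 2 of 3 fell on the deposited scale, beside 23.0% of all genes. On the T cell scale all 3 were called higher, beside 71.8% of all genes. Uhrf1, which guides the maintenance methyltransferase to newly made DNA, was at 72.7 and 69.7 FPKM in WT and at 62.5 and 60.9 FPKM in Tbx21-KO (log2 fold change -0.20, SE 0.04, adjusted p = 0.0131). Chaf1b, a subunit of the histone chaperone CAF-1, was at 10.8 and 11.4 FPKM in WT and at 8.90 and 9.69 FPKM in Tbx21-KO (log2 fold change -0.23, SE 0.06, adjusted p = 0.0319). Chaf1b was not called in 4 of the 15 alternative fits. Chaf1a, the large CAF-1 subunit, was at 19.9 and 18.8 FPKM in WT against 20.5 and 18.1 FPKM in Tbx21-KO, and its groups overlap (adjusted p = 0.961). Chaf1a shares 52.5% of its exon bases with Ubxn6 on the opposite strand.

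**Figure D2:**
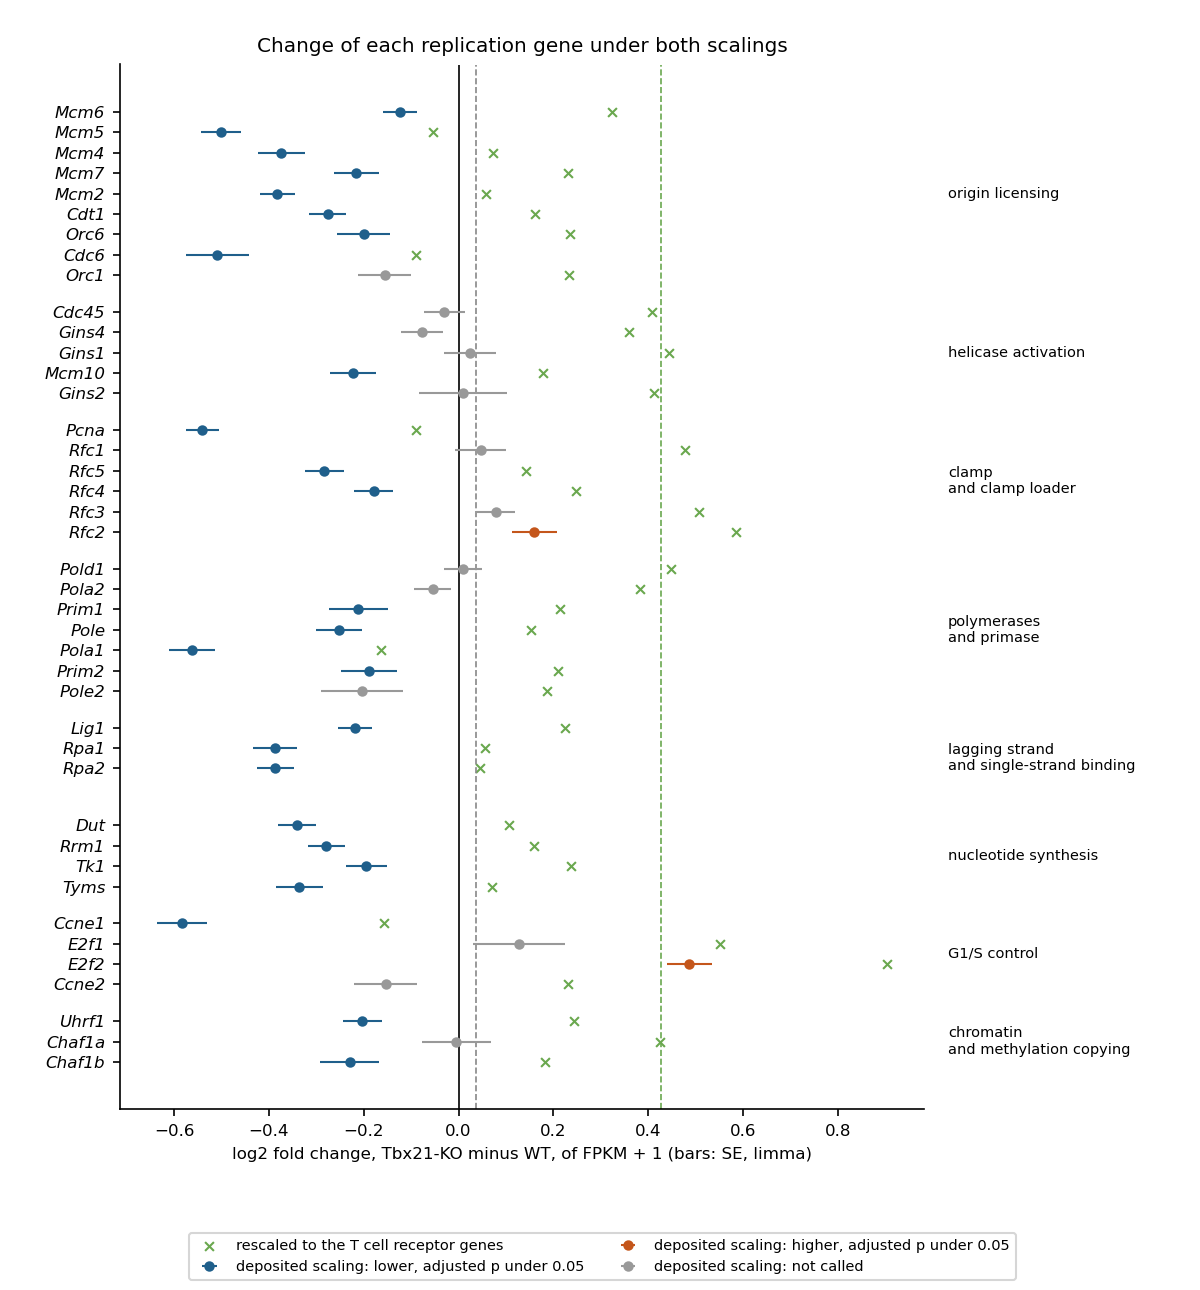
Log2 fold change of each tested member by role, with SE bars (limma), on the deposited scale (circles) and after rescaling each library to the T cell receptor genes (crosses). The dashed lines mark the median of all genes tested on each scale, 0.04 and 0.43. The circles run from -0.58 for Ccne1 to 0.49 for E2f2, and on the T cell scale every member moves to the right, where 28 are called higher and none lower.

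A scaling by 1 factor per library, unlike quantile normalization, leaves ratios within a library as they are, so the ratios of the deposited values show which members changed unequally. Of 18 ratios between members of one complex or step, chosen with the values known and not tested, 10 were lower in both Tbx21-KO libraries, 3 were higher and 5 overlapped. Over all 820 pairs of tested members the groups did not overlap in 79.9%, so a ratio that stands apart is the rule here. The largest shifts were those of Pcna to Rfc1, which went from 10.5 and 11.5 in WT to 7.30 and 7.26 in Tbx21-KO, and of Pola1 to Pola2. The ratio of E2f2 to E2f1 was 0.70 and 0.72 in WT and 0.86 and 1.02 in Tbx21-KO. The pairs that kept their ratio within the spread were Prim1 to Prim2, Rpa1 to Rpa2, Orc1 to Orc6, Pole to Pole2 and Rfc3 to Rfc1.

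**Figure D3:**
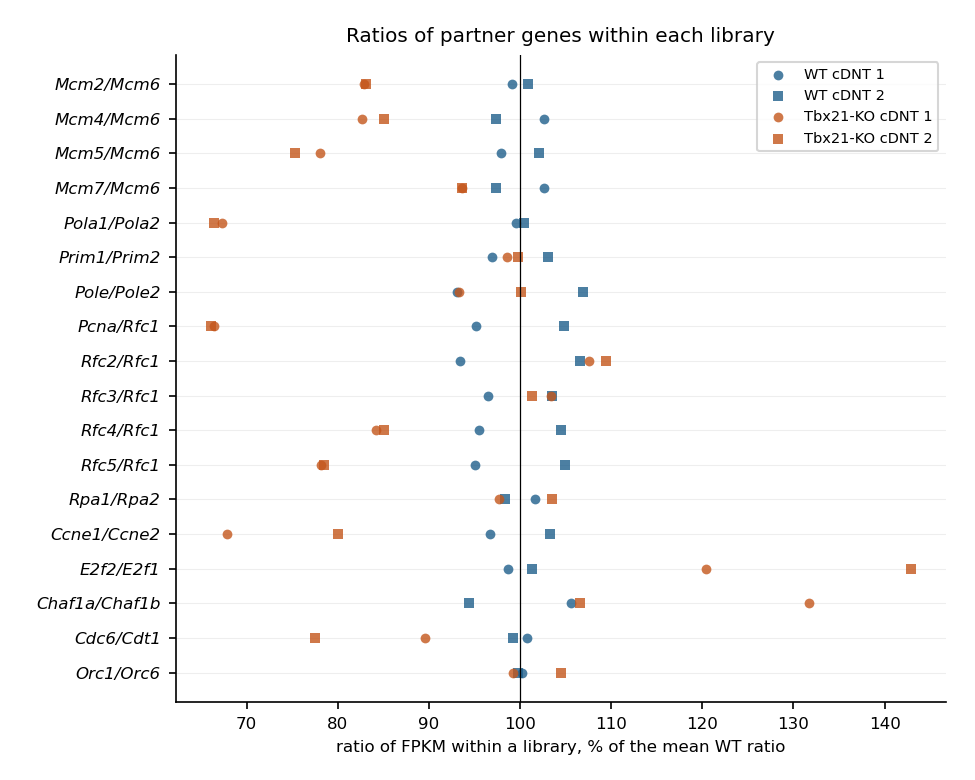
Ratio of FPKM between 2 members in the same library, as % of the mean WT ratio, for 18 pairs. Points are libraries, blue for WT and orange for Tbx21-KO. Pcna to Rfc1 and Pola1 to Pola2 stand at 66.2% and 66.8% of WT, E2f2 to E2f1 at 131.6%, and Prim1 to Prim2 and Rpa1 to Rpa2 lie at about the WT ratio.

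Other genes of the pathway were called in both directions. Of 33 further replication genes tested, 12 fell, 5 rose and 16 were not called, with a median of -0.12. Among all genes 23.0% were lower and 30.1% higher. On the T cell scale 19 were higher and 1 lower, beside 71.8% and 4.87% of all genes. Pclaf, which encodes a PCNA-binding protein, was at 71.3 and 68.4 FPKM in WT and at 43.7 and 45.7 FPKM in Tbx21-KO. It fell to 64.0% of WT and was called lower on all 4 scales. Pold4, the small subunit of polymerase delta, was at 42.8 and 44.0 FPKM in WT and at 64.8 and 69.7 FPKM in Tbx21-KO, a rise to 155.0% of WT called on all 4 scales. Pold1, the catalytic subunit of the same polymerase, overlapped between the groups.

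Of 22 nucleotide supply genes outside the module, 9 fell, 4 rose and 9 were not called (median -0.10). Among all genes 23.0% were lower and 30.1% higher. On the T cell scale 15 were higher and 1 lower, beside 71.8% and 4.87% of all genes. Shmt2, the mitochondrial serine hydroxymethyltransferase that feeds one-carbon units into nucleotide synthesis, was at 165.2 and 160.4 FPKM in WT and at 73.9 and 73.3 FPKM in Tbx21-KO. That fall, to 45.2% of WT (log2 fold change -1.13, SE 0.04, adjusted p = 5.32e-05), was larger than that of any member and was called on all 4 scales. Samhd1, which degrades deoxynucleotides, was at 32.5 and 31.3 FPKM in WT and at 46.2 and 45.3 FPKM in Tbx21-KO. It rose to 143.4% of WT, also on all 4 scales, and is also expressed by myeloid cells, whose markers rose in the same libraries. Their part in its level was not tested.

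Of 23 G1/S and E2F control genes outside the module, 11 rose, 7 fell and 5 were not called, with a median of 0.11, beside 30.1% higher, 23.0% lower and a median of 0.04 over all genes. On the T cell scale 16 were higher and 3 lower, beside 71.8% and 4.87% of all genes. Rb1, the retinoblastoma protein that holds E2F in check, was at 12.9 and 11.7 FPKM in WT and at 21.4 and 21.7 FPKM in Tbx21-KO, 175.2% of WT. Cdkn2a, whose products restrain the cell cycle, was at 17.9 and 21.0 FPKM in WT and at 10.5 and 11.9 FPKM in Tbx21-KO, 57.6% of WT. Both calls were made on all 4 scales. Of 12 chromatin copying genes, 6 fell and 1 rose (median -0.18), beside 23.0% and 30.1% of all genes. On the T cell scale 9 were higher and 1 lower, beside 71.8% and 4.87% of all genes. Nasp, a histone chaperone, was at 26.5 and 26.3 FPKM in WT against 16.8 and 16.7 FPKM in Tbx21-KO and was lower on all 4 scales. Tonsl, a reader of newly placed histones, had 23.3 and 24.3 FPKM in WT against 27.6 and 26.3 in Tbx21-KO, a rise to 113.3% of WT that was not called in 7 of the 15 alternative fits.

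Of 19 genes of G2 and mitosis tested, 12 fell, 1 rose and 6 were not called, with a median of -0.17, beside 23.0% lower and 30.1% higher among all genes. On the T cell scale 15 were higher and none lower, beside 71.8% and 4.87% of all genes. Birc5, which encodes survivin of the chromosomal passenger complex, fell to 72.3% of WT, from 34.8 and 37.5 to 26.9 and 25.4 FPKM. Aurka, a kinase of the spindle poles, rose from 24.4 and 24.1 to 30.1 and 28.3 FPKM. No test of the difference between the replication genes and these genes was made.

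**Figure D4:**
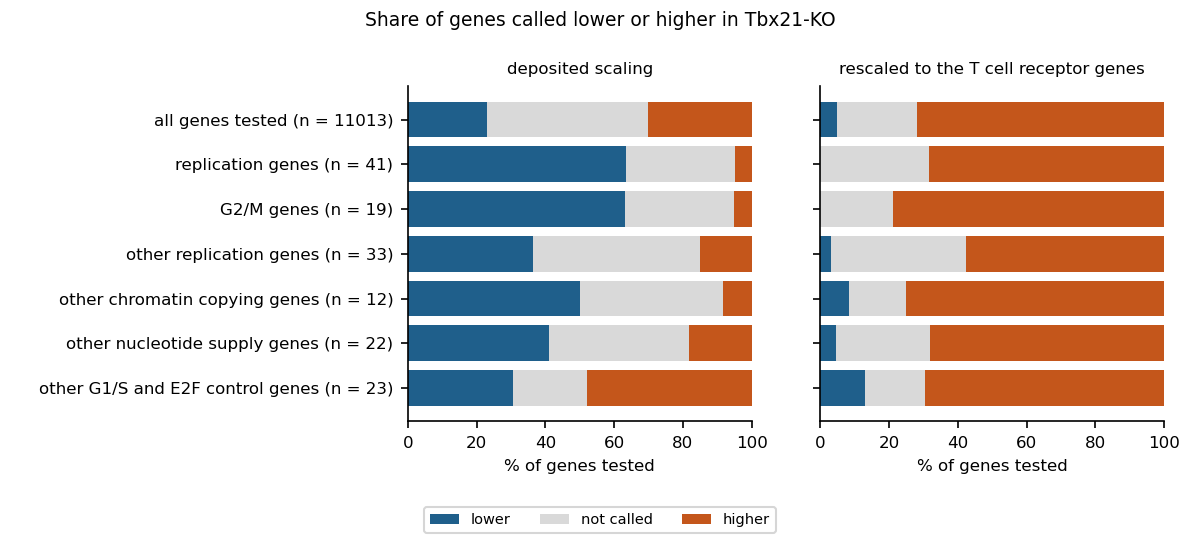
Share of the tested genes called lower (blue), not called (grey) or higher (orange) in Tbx21-KO for all genes, the replication genes and 5 related lists, on the deposited scale (left) and rescaled to the T cell receptor genes (right). On the left the replication genes have 26 of 41 called lower against 23.0% of all genes, and on the right none of them is called lower.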

How the data were processed

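RNA of 4 libraries was measured by RNA sequencing, with column extraction and an mRNA library kit, per the labels' protocols. The authors deposited 1 FPKM value per gene and library. The submitters' processing notes name the builds GRCm38 and mm10. For the aligner, counting tool, annotation and strand setting, nothing is given in the sources used here. The last of 24769 rows is incomplete and was left out. Ensembl IDs were matched to GENCODE M21 (GRCm38), 24720 of 24768. With the summed exon length, 96.8% to 97.3% of the values under 20 reads per library came out whole within 0.1 read, which gives the reads behind each value.

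Log2(FPKM + 1), with a pseudocount of 1, was fitted using limma 3.58.1 under R 4.3.3, with a variance trend and no covariate, on genes whose mean FPKM was 1 or more. P-values were adjusted by Benjamini-Hochberg over all 11013 genes. An exact permutation test with 2 libraries against 2 has a smallest two-sided p of 0.33 and was left out. The scripts were first tested on simulated data. The members, though their rule goes by symbol alone, the lists, the scalings and the ratios were chosen with earlier results of these data known. Values in every library are given, per role, for the member with the highest level and the members with the lowest and the highest fold change. They are also given for members called against the majority, and, per related list, for the called genes at both ends. Gins2, Rfc1 and Rfc3, positive without a call, are given without these values. Other members shown that way (Mcm5, Pola2, E2f1 and Fen1) were added after their values were seen. Other scalings, pseudocounts, filters, voom on recovered reads, a replicate block and leaving out each library were tried.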

Additional observations from a re-analysis of the deposited data

How the results depend on the processing

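Tbx21 was called lower (limma) in all 15 alternative fits, with log2 fold changes from -2.40 to -1.25. Of the 26 members that fell, 14 were called lower in every alternative fit except the rescaling to the T cell receptor genes. That rescaling set 28 members higher and 0 lower, and 7912 of all genes higher and 536 lower. Under it these log2 fold changes turned positive with a call: Orc1 0.23, Orc6 0.24, Cdt1 0.16, Mcm6 0.32, Mcm7 0.23, Mcm10 0.18, Cdc45 0.41, Gins4 0.36, Rfc4 0.25, Rfc5 0.14, Pola2 0.38, Prim1 0.21, Prim2 0.21, Lig1 0.22, Rrm1 0.16, Tk1 0.24, Ccne2 0.23, Uhrf1 0.24, Chaf1a 0.43 and Chaf1b 0.18. These turned positive without a call: Mcm2 0.0573, Mcm4 0.0735, Pole 0.15, Pole2 0.19, Rpa1 0.0555, Rpa2 0.0463, Tyms 0.0696 and Dut 0.11. The number of members called higher, 2 on the deposited scale, was 1 with no filter, with median-of-ratios scaling, after quantile normalization, with no variance trend and with the replicate block. The number called lower was 21 with no filter, 32 with median-of-ratios scaling, 28 after quantile normalization, 22 with no variance trend, 25 with voom on recovered reads and 26 with a mean FPKM minimum of 5. Of all genes, 2018 were higher with a mean FPKM minimum of 5 and 3801 lower after quantile normalization. Leaving out 1 library gave 15 to 21 members lower and 1 to 2 higher, with 2391 to 3036 of all genes higher and 1726 to 2225 lower; the group left with 1 library is then assumed to vary like the other. With the replicate number as a block, 24 members fell and 1 rose, with Mcm6, Prim2 and Rfc2 no longer called. The labels do not say what a shared number means, and the differences between libraries 1 and 2 of WT and of Tbx21-KO correlated at -0.02 over 11013 genes, so the numbers were not taken as pairs. Fen1 rests on at most 38 reads in a library, and the cause was not tested.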

Other observations

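All 7 members with a mean of 50 FPKM or more over the 4 libraries were called lower on the deposited scale. They were Pcna, Mcm6, Mcm4, Mcm5, Dut, Uhrf1 and Mcm7, with a median log2 fold change of -0.34. None of them was called lower on the T cell scale, beside 4.87% of all genes. Below 50 FPKM 19 of 34 were called lower on the deposited scale, with a median of -0.20. Among all genes 23.0% were called lower on that scale. With a mean FPKM minimum of 5, 2171 of the 7032 genes tested were lower. The share of all genes at 50 FPKM or more was not computed. The SE ran from 0.04 to 0.05 in the first set and from 0.04 to 0.10 in the second. The level of 50 FPKM was chosen after the values were seen, and the difference was not tested.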
